A study of Mus musculus with 2 samples.

Results

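The Upk3b-positive cells described here are 77 of the 13502 cells kept from single cell RNA sequencing of neonatal mouse hearts, 47 of 4991 at postnatal day 1 (P1) and 30 of 8511 at postnatal day 7 (P7). A cell was a member when it held at least 3 unique molecular identifiers (UMIs, each standing for 1 captured mRNA molecule) of Upk3b, at least 1 UMI of Upk1b, Bnc1 or Dmkn, and fewer than 5 of Sftpc, a surfactant gene of the lung. Kept cells were those with 200 to 8000 genes and at most 20% mitochondrial UMIs. These genes chose the cells, so their levels are given as a description only. The hearts came from unoperated mice of a single litter per age, 3 hearts were pooled per age, and each pool gave 1 library. P1 hearts were digested for 20 min and P7 hearts for 45 min, live cells were sorted, and the libraries were made with 10x Genomics chemistry that reads the 3′ end of mRNAs. With 1 library per age there was no replicate, and no test between P1 and P7 or between cells was possible. Age, litter, sex and digestion time changed together and cannot be told apart.

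The epicardium is the sheet of mesothelial cells that covers the heart. Like the mesothelium of other body cavities it combines keratins, apical junctions and a lubricating surface coat with Wt1 and with mesenchymal genes such as collagens. In the embryo it sends cells into the myocardium that become fibroblasts and mural cells, and it secretes retinoic acid and growth factors that act on the underlying muscle.

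Levels are given as CPM, the UMIs of a gene summed over a set of cells per 1000000 UMIs of that set. Ranges in parentheses are exact 95% intervals, which cover counting error only. The members held 719711 UMIs at P1 and 435792 at P7. A member had a median of 15397 UMIs at P1 and 14732 at P7, against 10823.5 and 10076 in the other kept cells, so genes of low abundance were seen more readily in the members. Their share of kept cells was 0.942% in the P1 library (0.693 to 1.25) and 0.352% in the P7 library (0.238 to 0.503).

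Levels of the genes that chose the cells come first. Upk3b, a uroplakin of the apical membrane (chromosome 5, 136038496 to 136046487 on GRCm38), stood at 2145 CPM in P1 members and 1671 CPM in P7 members, against 0.978 and 0.309 CPM in the other cells. A member at P1 held between 3 and 98 Upk3b UMIs with a median of 27, and a member at P7 between 5 and 63 with a median of 21.5. Just inside the threshold lay 1 P1 member with 3 UMIs, followed by one with 9, and P7 members with 5 and 6. Just outside it lay 26 P1 cells and 12 P7 cells, each with 1 Upk3b UMI, of which 4 and 0 held a second marker. The second marker removed a further 3 cells at P1, with 4, 5 and 22 Upk3b UMIs, and 1 at P7 with 18. No cell with at least 3 Upk3b UMIs was lost to the Sftpc limit in either library. Kept cells with at least 5 Sftpc UMIs numbered 9 in the P1 library and 0 in the P7 library.

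**Figure D1:**
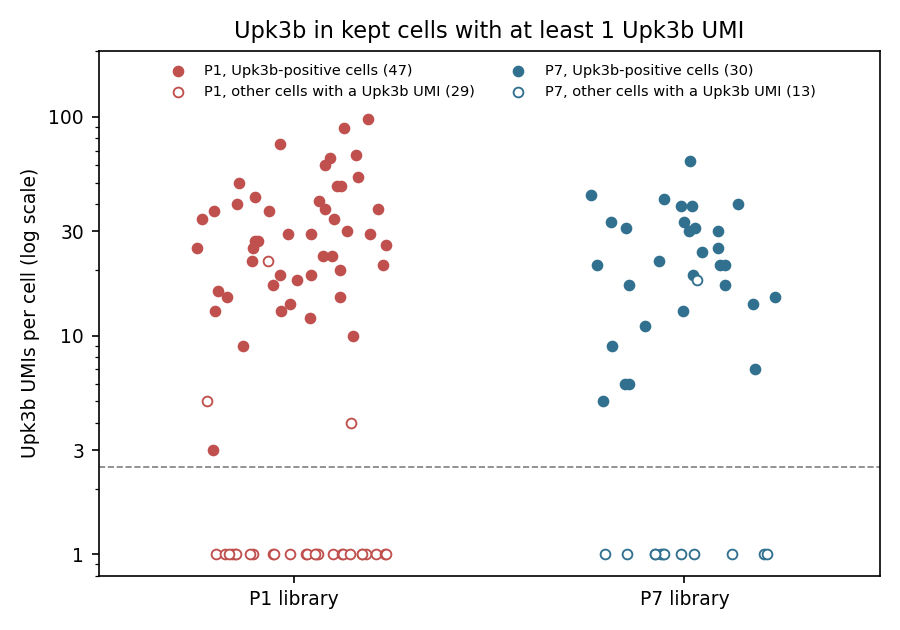
Upk3b UMIs per cell (log scale) in every kept cell with at least 1 such UMI, by library, with filled circles for the 47 P1 and 30 P7 members, open circles for other cells and a dashed line at the threshold. All cells below the line sit at 1 UMI, and the lowest members sit at 3 (P1) and 5 (P7).

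Among the remaining gate genes, the levels in the P1 and P7 members were 647 and 344 CPM for Upk1b, 57.0 and 80.3 CPM for Bnc1, and 1050 and 190 CPM for Dmkn. Wt1, the zinc finger factor by which epicardium is commonly recognised, was not part of the gate. It had a UMI in 46 of 47 P1 members and 28 of 30 P7 members, at 308 CPM (269 to 352) and 273 CPM (226 to 327), and in 20.7% and 18.2% of the other kept cells. In cells gated as lymphocytes, which should lack it, the share was 3.89% and 3.88%, at median depths of 8153 and 6013 UMIs. Wt1 is also known from the mesothelium of other cavities, so it does not tell epicardium from that tissue. Some other factors of the heart surface, Tbx18 and Tcf21 among them, were lower in the P1 members that carried Hoxa5, described further on, whereas Gata6 was not, and the cells are named here by their rule.

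Promoter sequences are shown for Upk3b, which defined the cells, and for Lrrn4, a leucine-rich repeat protein outside the gate that was found in 43 of 47 and 29 of 30 members and almost nowhere else. Each is the run of 250 bases before the gene's start, 5′ to 3′ on the gene's own strand, from RefSeq on GRCm38.p6. That of Upk3b is chr5:136038246-136038495 on the plus strand and that of Lrrn4 is chr2:132880863-132881112 on the minus strand. Capitals mark GGAATG or its reverse complement CATTCC, the core recognised by TEAD factors, the partners of Yap1 and Wwtr1.
Upk3b: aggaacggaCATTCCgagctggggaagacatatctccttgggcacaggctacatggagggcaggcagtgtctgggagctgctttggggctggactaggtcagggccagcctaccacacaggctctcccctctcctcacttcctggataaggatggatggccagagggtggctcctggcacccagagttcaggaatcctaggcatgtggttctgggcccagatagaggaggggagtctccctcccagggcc
Lrrn4: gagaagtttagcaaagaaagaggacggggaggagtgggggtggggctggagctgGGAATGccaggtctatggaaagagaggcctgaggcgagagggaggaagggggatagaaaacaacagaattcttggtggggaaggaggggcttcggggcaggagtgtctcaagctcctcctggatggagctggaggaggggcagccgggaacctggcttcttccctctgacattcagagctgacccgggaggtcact
The motif began 241 bases before the start of Upk3b and 196 bases before that of Lrrn4. Of the 20 genes most selective for the members, 13 had an entry in the promoter table, and 4 of these (Ckmt1, Fxyd3, Krt14 and Lrrn4) held the motif on either strand, against 12.6% of the 32851 promoters in the table. A match is a run of letters and was not tested as a binding site.

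Against the other kept cells of the same library, the members stood out by a mesothelial surface, an epithelial skeleton and secreted complement. Of the 4331 genes measured in both libraries, which needed at least 20 observed or expected UMIs in the members of each, 223 (5.15%) were at least 4-fold higher and 220 (5.08%) at least 4-fold lower in both. The median log2 ratio of all genes measured was -0.09 at P1 and -0.02 at P7. In single libraries the shares were 6.12% higher and 7.31% lower of 6242 genes at P1, and 6.8% and 6.6% of 4394 genes at P7. Against a fibroblast gate (938 P1 and 1829 P7 cells with Pdgfra and Col1a1 and without Upk3b) they were 7.75% and 4.92% at P1 and 7.88% and 5.45% at P7. Since the cells were chosen by genes of the same programme, these counts are a description.

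Genes of the surface coat were among the most selective. Msln, the mesothelin anchored at the cell surface, had 2284 CPM in the P1 members and 1379 CPM in the P7 members, against 5.03 and 0.134 CPM in the other cells. Muc16, the mucin that binds mesothelin, reached 175 and 145 CPM against 4 UMIs in all other P1 cells together and 0 in those of P7. At P7 it was therefore at least 4674-fold higher, with the group of other cells set to a floor of 3 UMIs. Lrrn4 stood at 328 and 321 CPM against 0.172 and 0.103 CPM, log2 ratios of 10.83 (10.00 to 11.98) and 11.54 (10.68 to 12.70). With no second marker required these ratios were 12.40 and 12.42. Of the list of mesothelial surface and secreted genes, 13 of 20 were measured in both libraries, 11 of these were at least 4-fold higher and none was 4-fold lower. The median log2 ratio of the genes measured in each library was 4.82 (P1) and 5.42 (P7). List medians against the other cells given below are likewise over the genes measured in each library, which can outnumber those measured in both. The list was compiled with such cells in mind, and its further members Gpm6a, a membrane glycoprotein, and Nkain4 lay at 522 and 519 CPM and at 1177 and 1085 CPM in the P1 and P7 libraries.

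Some selective genes were found in few members. Slurp1, a small secreted Ly6-family protein, was found in 8 P1 members and 4 P7 members, yet summed to 164 and 87.2 CPM. Other P1 cells held 0 Slurp1 UMIs, so that it was at least 3187-fold higher in the members there. One P1 cell held 74 of the 118 UMIs and 1 P7 cell 32 of the 38, and the P1 bound was 1209-fold without that cell. Fgfbp1, a carrier of fibroblast growth factors, had UMIs in 24 and 9 members, and Ckmt1, a mitochondrial creatine kinase, in 9 and 6. By contrast Rspo1, the Wnt-amplifying R-spondin 1, was present in all 47 and all 30 members, at 603 CPM (548 to 663) and 888 CPM (802 to 981). Tmem151a, Pkhd1l1 and Cxadr, the junctional receptor for coxsackie and adenovirus, were found in most members, with shares of 97.9%, 87.2% and 95.7% at P1 and 96.7%, 100% and 83.3% at P7. The endocytic receptor Lrp2 and the folate receptor Folr1 belonged to the same top 20 genes, with 133 and 61.1 CPM at P1 and 68.8 and 66.5 CPM at P7. Also among them were Tm4sf5, Lgals2, a galectin, and Fxyd3, a regulator of the sodium pump, each with at most 0.635 CPM in the other cells.

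**Figure D2:**
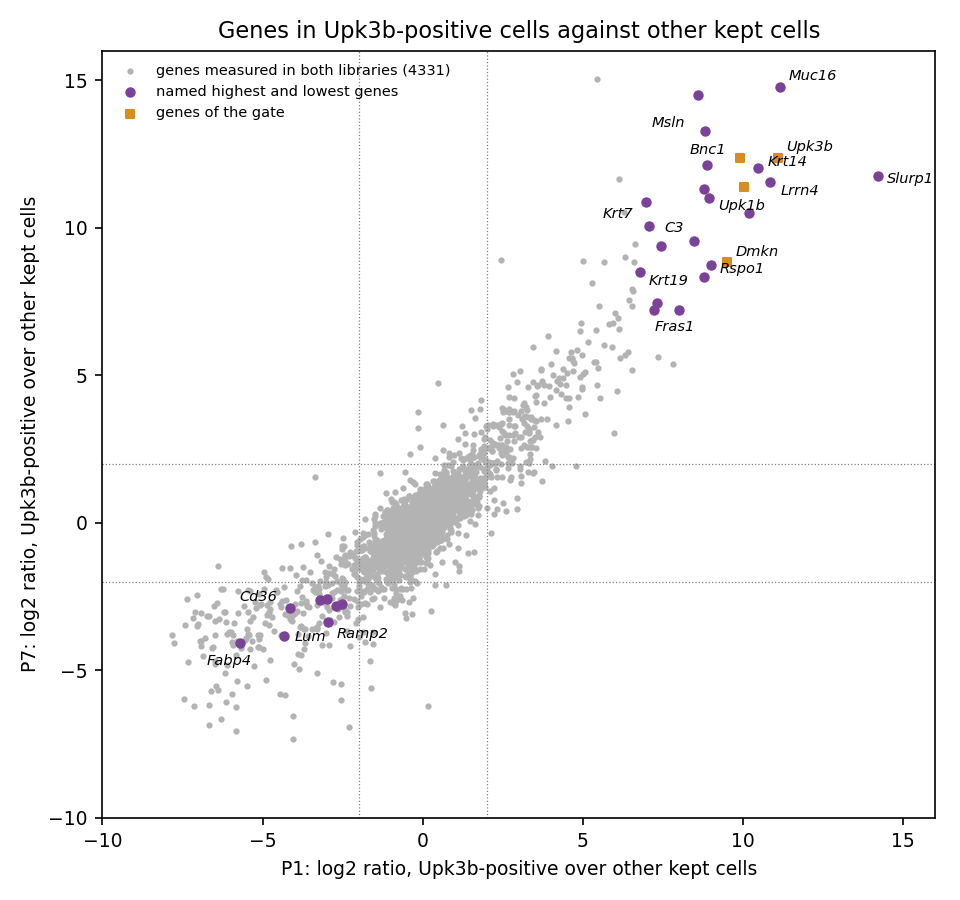
Log2 ratio of CPM in the Upk3b-positive cells over all other kept cells, P1 on the x axis and P7 on the y axis, for the 4331 genes measured in both libraries (grey), with the 28 named highest and lowest genes in purple, genes of the gate as squares and dotted lines at 4-fold. Named high genes such as Muc16, Lrrn4 and Msln lie far above 4-fold on both axes, and Fabp4 and Lum lie below 4-fold lower on both.

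Keratins and junction genes were higher as well. Krt19 lay at 1103 CPM (P1) and 1496 CPM (P7) against 10.0 and 4.17 CPM in the other cells, and Krt7 reached 610 and 255 CPM. Krt8 and Krt18, which pair into filaments of simple epithelia, lay at 210 and 361 CPM at P1 and at 250 and 457 CPM at P7. Krt14, better known from the basal epidermis, was carried by 14 P1 members and 8 P7 members. Of the list of keratins, junctions and polarity genes, 12 of 15 measured were at least 4-fold higher in both libraries and none was lower. Among those 12, Ezr, the linker of membrane and actin in microvilli, had 653 and 796 CPM, and the tight junction gene Cldn15 had 386 and 452 CPM. The remaining 3 genes, Tjp1, Jup and F11r, are junction genes that endothelium also uses, and their ratios lay between -0.85 and 0.88 on the log2 scale.

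Of the 10 complement genes measured, 6 were at least 4-fold higher in both libraries, and the list's median log2 ratio was 4.70 at P1 and 3.96 at P7. C3, the central component, was at 2008 CPM (P1) and 1521 CPM (P7), against 5.69 and 2.01 CPM elsewhere, and was present in 46 and 29 members. C2, the protease subunit of the classical convertase, had 345 and 363 CPM, C1s1 had 98.7 and 124 CPM, and C4b had 43.1 and 48.2 CPM. C1qa, which macrophages make, had 0 UMIs in the members of either library and was at least 23.3-fold (P1) and 12.4-fold (P7) higher in the other cells.

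Secreted signals were mixed. Of 33 growth factors, chemokines and guidance cues measured in both libraries, 8 were at least 4-fold higher in both and 4 at least 4-fold lower. The list's medians were -0.10 over 42 genes at P1 and 0.49 over 35 genes at P7. Besides Rspo1, the higher set held Fgf1, at 94.5 and 73.4 CPM, and Fgf9, Wnt5a, Il33 and Pdgfa. Cxcl12, the chemokine of stromal and perivascular cells, stood at 1 and 3 UMIs in the members, against 185 and 209 CPM elsewhere. Of the insulin-like growth factor axis, Igfbp5 and Igfbp6, which bind the ligands outside the cell, were at least 4-fold higher in both libraries. Igfbp5 was among the 10 most abundant genes of the members, at 7467 CPM (P1) and 3788 CPM (P7). Igfbp6 reached 3564 and 1459 CPM against 16 and 35.4 CPM in the other cells.

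The members also carried abundant mesenchymal matrix. The 10 most abundant genes outside mitochondrial and ribosomal genes were Malat1, Sparc, Col3a1, Lgals1, Tpt1, Eef1a1, Mgp, Gm42418, Igfbp5 and Crip1. Gm42418 overlaps ribosomal RNA sequence, and its reads may be of that origin. Sparc, a collagen-binding matrix protein, had 10938 CPM in the P1 members and 10562 CPM in the P7 members, and Col3a1 had 8655 and 9482 CPM, within 3-fold of their levels in the other kept cells. Of 56 matrix genes measured, 5 were at least 4-fold higher and 9 at least 4-fold lower, with medians of -0.24 and -0.15. Efemp1, a fibulin, and Npnt, nephronectin of the basement membrane, were in the higher set, with log2 ratios of 7.34 and 4.07 at P1 and 5.61 and 5.02 at P7. The vascular and fibroblast genes Col4a1, Postn, Lum and Sparcl1 were in the lower set. In the fibroblast gate Col3a1 stood within 0.45 on the log2 scale of the members at both ages. Pdgfra and Col1a1 chose the cells of that gate, so Pdgfra, at 9.73 and 32.1 CPM in the members, is not compared with it.

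The counts of further lists stand beside the 5.15% higher and 5.08% lower of all genes measured. Of 25 antioxidant and detoxification genes measured, 5 were at least 4-fold higher and none lower, among them the glutathione transferases Gsta4, at 490 and 420 CPM, and Mgst1, at 714 and 854 CPM. Of only 4 prostaglandin genes measured, 3 were higher, Ptgs1, Hpgd, which degrades prostaglandins, and the receptor Ptger3. Retinoid handling gave 1 of 5, too few to set beside these shares, Rbp4, a carrier of retinol, with 156 and 165 CPM. Aldh1a2, the retinoic acid synthesising enzyme classically used to mark epicardium, was 302 and 372 CPM, log2 ratios of 1.59 (1.38 to 1.78) and 1.32 (1.09 to 1.54), short of 4-fold. The growth factor receptor Met was higher, at log2 ratios of 4.99 and 5.05, and 5 of 16 receptors were lower. Of 19 lineage factors measured, 3 were at least 4-fold higher in both libraries, Wt1, Tbx18 and Osr1, and 2 at least 4-fold lower. Osr1, a zinc finger factor of intermediate mesoderm, had 429 and 390 CPM. Antigen presentation and interferon genes gave 2 of 16 higher and 2 lower, with medians of -0.0036 and 0.29, and fibrinolysis and coagulation none higher and 1 of 8 lower, with medians of 0.018 and 0.11, counts too small to read against these shares. Notch, Hedgehog and Wnt signalling and fatty acid uptake and oxidation gave no gene higher, and 3 of 8 and 3 of 14 lower.

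**Figure D3:**
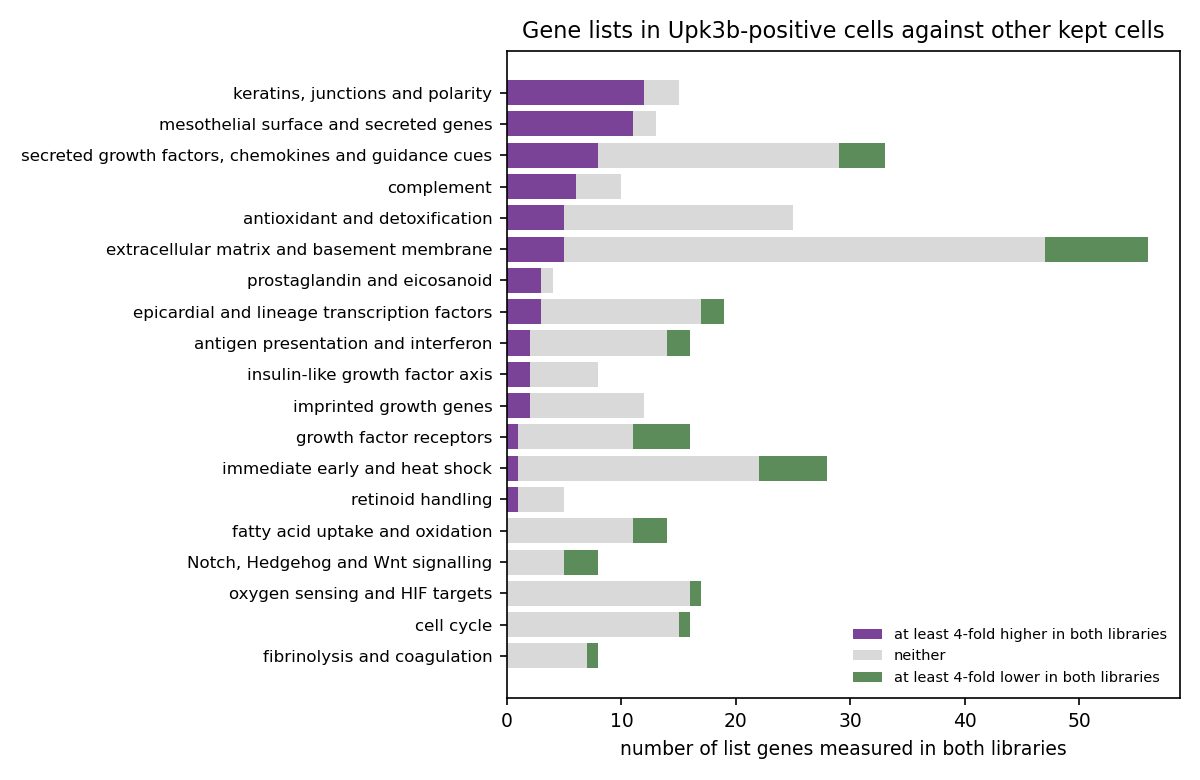
Number of genes of each list measured in both libraries (x axis), divided into those at least 4-fold higher in the Upk3b-positive cells in both libraries (purple), at least 4-fold lower (green) and neither (grey). Keratins and junctions (12 of 15) and mesothelial genes (11 of 13) are mostly purple, and oxygen sensing and cell cycle genes hold none.

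Lists of stress, oxygen sensing and the cell cycle followed. Immediate early and heat shock genes, which tissue digestion can induce, gave 6 of 28 at least 4-fold lower and 1 higher, the small heat shock gene Hspb1, with medians of -1.28 and -1.34. Egr1 was 106 and 68.8 CPM in the members against 611 and 469 CPM elsewhere. Of 17 oxygen sensing genes and hypoxia-inducible factor (HIF) targets measured, none was 4-fold higher and 1 was lower, Epas1, the HIF-2α subunit, at 16.7 and 16.1 CPM. The medians of that list were 0.06 over 26 genes at P1 and 0.16 over 19 genes at P7. Cell cycle genes had medians of -0.70 and -1.39, and 5 of 47 P1 members (10.6%, 3.55 to 23.1) and 3 of 30 P7 members (10.0%, 2.11 to 26.5) had a UMI of Mki67 or Top2a, against 15.6% and 15.5% of the other cells. Thinned to 5000 UMIs, the shares were 10.6% and 6.90% of members and 12.8% and 12.5% of other cells. These shares cannot be ordered at this number of cells.

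Markers of endothelial, immune, cardiomyocyte, mural and erythroid cells summed to lower levels in the members than in the other cells of both libraries, whereas fibroblast markers summed higher at P1. The 8 genes named as lowest were Fabp4, Lum, Ramp2, Cd36, Emp1, Col4a1, Itih5 and Egr1. C1qa and Cxcl12, with few or no UMIs in the members, had lower ratios than some of these in both libraries. Fabp4, a fatty acid carrier of capillary endothelium, was 153 CPM in the P1 members and 351 CPM in the P7 members, against 7965 and 5870 CPM elsewhere, and was found in 83.0% and 80.0% of members but also in 86.1% and 79.0% of lymphocytes, at the level of background. Ratios of Cd36 turned positive in both libraries, and that of Fabp4 at P7, when the fibroblast gate replaced all other cells, at 1.76, 2.67 and 1.56. Summed over 8 endothelial markers the members held 218 and 248 CPM against 2006 and 1930 CPM elsewhere, led by Kdr at P1 (93 UMIs) and Tek at P7 (36 UMIs), and no marker was at 0. Over 11 immune markers they held 36.1 and 84.9 CPM, with Csf1r leading and 7 and 3 markers at 0. Over 10 cardiomyocyte markers they held 114 and 89.5 CPM, led by Tnnt2, and over 9 mural markers 90.3 and 174 CPM. In the other cells these sums were 1400 and 838 CPM for immune, 1051 and 390 CPM for cardiomyocyte and 1942 and 2700 CPM for mural markers. The 6 erythroid markers summed to 19.5 and 64.3 CPM against 1972 and 2587 CPM. The 10 fibroblast markers summed to 23172 and 20964 CPM, mostly Col3a1 and other collagens, against 14226 and 24048 CPM, with Dpep1 at 0 in the P7 members. Of the 9 measured in both libraries, 3 were at least 4-fold lower and none higher. The median log2 ratios were -1.73 over 10 genes at P1 and -0.71 over 9 genes at P7. Glial markers, 6 in number, summed to 8.34 and 18.4 CPM against 16 and 12.6 CPM, on 6 and 8 UMIs, with Sox10 at 0. The 10 alveolar markers summed to 40.3 and 78.0 CPM against 305 and 40.8 CPM, and all 34 UMIs at P7 were of Hopx, while Nkx2-1 and Sftpb were at 0 in both libraries. The part of these genes in the results was not tested. One P7 member held most UMIs of some fibroblast genes of its library, 94.6% of those of Postn and 90.7% of those of Lum but 11.4% of those of Col3a1, and 1 further P7 member held at least 5 UMIs of endothelial or immune markers. Without both, the P7 log2 ratios against other cells were lower still, from -4.06 to -5.21 for Fabp4, from -2.87 to -3.67 for Cd36, from -3.85 to -6.95 for Lum, from -2.82 to -3.89 for Emp1 and from -2.62 to -3.17 for Col4a1.

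Members differed most from each other in a few abundant genes. With every cell randomly reduced to 5000 UMIs (thinning, for which 1 P7 member was too shallow), 621 genes had a mean of at least 1 UMI in each library, with a median variance-to-mean ratio of 1.38 in the P1 library and 1.36 in the P7 library. Mgp, matrix Gla protein, had ratios of 75.5 and 41.2, and single members held 0 to 233 thinned UMIs in the P1 library and 0 to 198 in the P7 library. Msln had a median of 9 and a highest cell of 46 among P1 members, and a median of 4 and a highest cell of 34 among P7 members. Malat1, Lgals1, Gm42418, Igfbp5, Crip1 and Col1a1 were the others of the 8 most variable genes. Malat1 is a nuclear RNA, and it had 0 thinned UMIs in the lowest cell of each library and 249 and 331 in the highest.

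Between the libraries, 133 of 3684 genes with at least 50 UMIs in the members together were at least 2-fold higher at P1 (3.61%), and 102 were at least 2-fold higher at P7 (2.77%). All of them had a counting interval apart from 0, which follows largely from the minimum of 50 UMIs and the 2-fold limit and adds little support. Without the cell of each library that held the most UMIs of a gene, the counts were 146 and 61, of which 112 and 56 were among these genes. Over all 3684 genes the median of the log2 ratios (P1 over P7) stood at -0.05. Without the 2 P7 members with markers of other types the counts were 141 and 87. Median-ratio scaling moved this median by 0.11, and the split from 133 and 102 to 177 and 76. Of the 133 genes, 26 were also 2-fold higher at P1 in the other kept cells, 98 lay within 2-fold there and 9 were 2-fold the other way. Of the 102 genes, the numbers were 5, 88 and 9. Xist, the RNA of the inactive X chromosome, had 474 UMIs in the P1 members, in every one of the 47 cells, and 0 in the P7 members. The Y-linked Ddx3y had 0 and 19 UMIs, and sex therefore differs with age in these cells. Xist was at least 95.7-fold higher at P1. Gm10320, with 0 UMIs at P1 and 34 at P7, differed in like manner in the other cells, with 0.635 and 111 CPM.

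**Figure D4:**
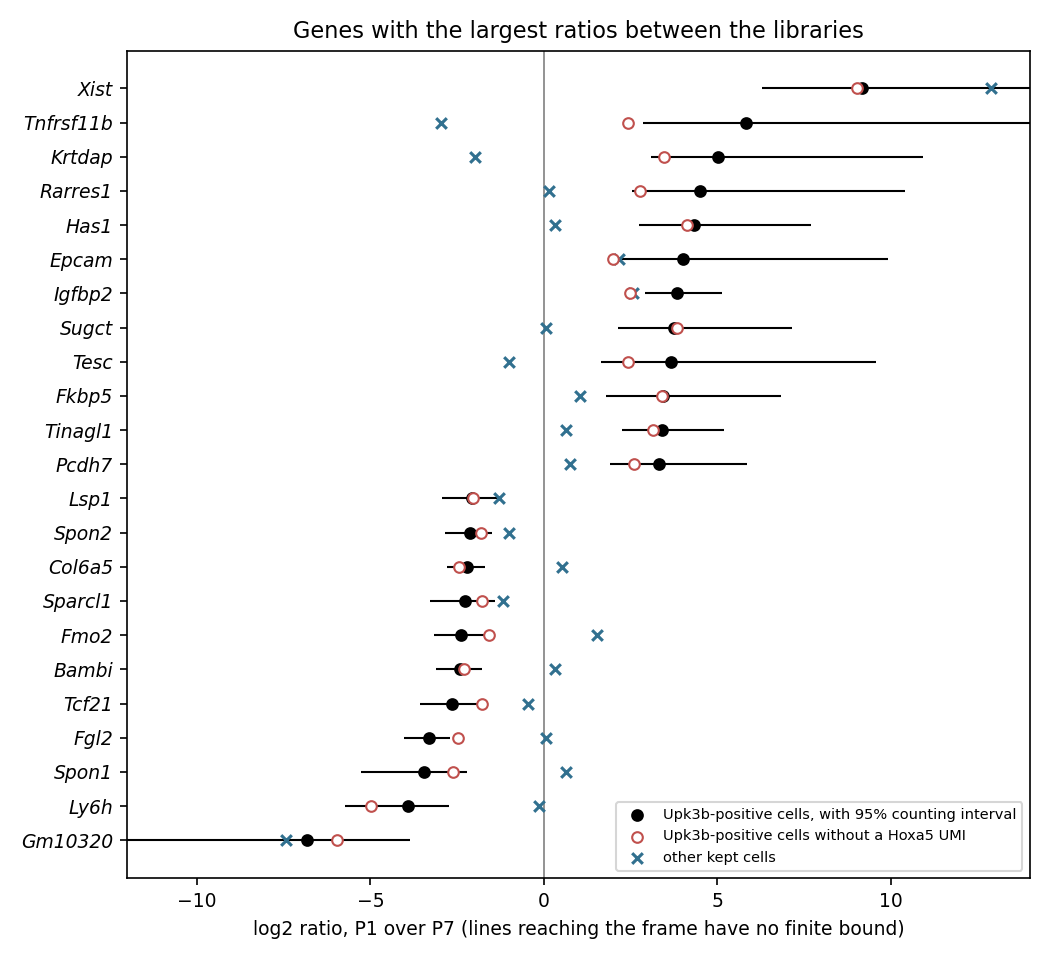
Log2 ratio of P1 over P7 (x axis) of 12 genes with the largest ratios towards P1 and 11 towards P7, in all Upk3b-positive cells (black, with 95% counting interval), in those without a Hoxa5 UMI (open circles) and in other kept cells (crosses). Xist and Gm10320 differ alike in other cells, Has1, Sugct and Col6a5 hold their ratio without the Hoxa5 cells, and Tnfrsf11b, Krtdap and Fmo2 have the opposite sign in other cells.

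Among the genes with the largest ratios towards P1 were Has1, Sugct, Fkbp5 and Tinagl1. Has1, a hyaluronan synthase, had 82 UMIs in 18 P1 members and 2 UMIs in 2 P7 members, or 114 and 4.59 CPM, a log2 ratio of 4.32 (2.73 to 7.70) against 0.31 in the other cells. Without the cells that held a Hoxa5 UMI the ratio was 4.12 (2.48 to 7.52). Sugct, a mitochondrial CoA transferase, behaved alike, with 76.4 and 4.59 CPM and log2 ratios of 3.75 (2.14 to 7.14) in all members and 3.85 (2.18 to 7.25) without Hoxa5 cells. Fkbp5, a glucocorticoid-induced chaperone, and Tinagl1, a matrix protein, had ratios of 3.43 and 3.39 in all members and 3.40 and 3.15 without Hoxa5 cells. The difference of these genes was thus present in the P1 cells that lacked a Hoxa5 UMI. With each cell thinned to 5000 UMIs, the ratio of Has1 was 2.65.

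In a further set, most of the P1 UMIs lay in the cells with a Hoxa5 UMI. Tnfrsf11b, osteoprotegerin, had 46 UMIs in the P1 members and 0 in the P7 members, at least 9.28-fold higher at P1, and 44 of the 46 UMIs lay in cells with a Hoxa5 UMI. Krtdap, a keratinocyte differentiation gene, had 80 and 1 UMIs, of which 65 lay in those cells, and Rarres1, a retinoic acid-responsive gene, had 56 and 1, of which 47 did. Epcam had 39 and 1 UMIs, with 34 in them, and Igfbp2 198 and 8, with 170 in them. The log2 ratio of Igfbp2, 3.82, was 1.85 when no second marker was required. Pcdh7, a protocadherin, and Tesc followed at 57 and 3 and at 31 and 1 UMIs, and the log2 ratio of Tesc, 3.67, was 1.42 with each cell thinned to 5000 UMIs. Without the Hoxa5 cells these log2 ratios were smaller, and several rested on few cells. They were 3.47 for Krtdap, 2.77 for Rarres1, 2.58 for Pcdh7, 2.48 for Igfbp2 and 1.98 for Epcam. Those of Tesc and Tnfrsf11b were both 2.43. Among P1 cells without Hoxa5, a UMI was found in 2 cells for Krtdap, 3 for Rarres1, 4 for Epcam and 1 for Tnfrsf11b. For Epcam and Tnfrsf11b these were too few for an order. In the other kept cells Tnfrsf11b and Krtdap were lower at P1, with log2 ratios of -2.98 and -2.0.

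Towards P7, Fgl2, a fibrinogen-like protein, had 32.0 CPM in the P1 library and 324 CPM in the P7 library, a log2 ratio of -3.31 (-4.04 to -2.70) against 0.05 in the other cells. Ly6h, of the Ly6 family, had 6.95 and 115 CPM, and Spon1, a spondin, 6.95 and 82.6 CPM, each in 3 P1 members and 11 P7 members. Bambi, a decoy receptor for bone morphogenetic proteins, had 37.5 and 202 CPM, a log2 ratio of -2.41. Col6a5, a collagen VI chain with 0.703 and 0.495 CPM in the other cells, had 55.6 and 259 CPM. Tcf21, the factor of epicardium-derived fibroblasts, had 22.2 and 142 CPM, in 8 of 47 and 17 of 30 members. Fmo2, a flavin monooxygenase, had 30.6 and 163 CPM, whereas in the other cells it was higher at P1, at a log2 ratio of 1.53. Spon2 and Lsp1, at log2 ratios of -2.14 and -2.08, were lower at P1 in other cells too, at -1.0 and -1.28. Without the Hoxa5 cells the log2 ratio of Bambi was -2.29 and that of Ly6h -4.97, whereas those of others were smaller in size, -2.48 for Fgl2, -2.63 for Spon1 in place of -3.45, -1.77 for Tcf21 in place of -2.65 and -1.59 for Fmo2 in place of -2.39. With a Upk3b minimum of 1 UMI that of Tcf21 was -1.07. The ratio of Sparcl1, -2.28, became 0.06 without the 2 P7 members that held fibroblast, endothelial or immune markers.

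Counts by list stand beside 3.61% of the 3684 genes measured that were at least 2-fold higher at P1 and 2.77% at P7. Mesothelial surface and secreted genes gave 4 of 14 at least 2-fold higher at P1 and 1 at P7, with a median log2 ratio of 0.23 beside 0.78 in the other cells. Secreted growth factors, chemokines and guidance cues gave 1 of 28 at P1 and 4 of 28 at P7, with a median of -0.35 beside -0.08 in the other cells, and without the Hoxa5 cells 1 and 3 of 19 with a median of -0.059. Antigen presentation and interferon genes gave 2 of 13 and 3 of 13, with a median of -0.18. Keratins, junctions and polarity genes gave 2 of 16 and 0, antioxidant and detoxification genes 2 and 3 of 24, and lineage factors 2 and 2 of 15. Imprinted growth genes gave 5 of 13 at least 2-fold higher at P1 and 1 at P7, and the insulin-like growth factor axis gave 3 of 9 and 1 of 9. Without the Hoxa5 cells the latter gave 1 of 8 at P1 and 2 of 8 at P7, and its median log2 ratio went from 0.36 to -0.11. Dlk1, a Notch-family ligand of fetal tissue, had 1210 CPM in the P1 and 252 CPM in the P7 members, a log2 ratio of 2.26 (1.97 to 2.56), beside 3.50 in the other cells. H19 and Meg3 were higher at P1 as well, at 1.52 and 1.02, whereas Cdkn1c, an inhibitor of the cell cycle, was higher at P7 at -1.21. Igf1 had 146 CPM (P1) and 564 CPM (P7), a ratio of -1.95 (-2.30 to -1.62) against 0.70 in the other cells, and Igfbp6 had 1.29 against -1.14. Matrix genes gave 3 of 52 at P1 and 7 of 52 at P7. Of the 17 oxygen sensing genes measured, none was 2-fold higher at P1 and 1, Plod2, was higher at P7, and the median was 0.11 beside 0.03 in the other cells. Without the Hoxa5 cells 1 of 11 was higher at P1 and none at P7, with a median of -0.09. Pdk3, a pyruvate dehydrogenase kinase below the minimum of 50 UMIs, had 36 UMIs at P1 and 3 at P7, and its log2 ratio of 2.66 (1.2 to 5.2) was 2.25 (0.60 to 4.86) without Hoxa5 cells. Vegfa had 6 and 4 UMIs, too few for an order.

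Cells with a Hoxa5 UMI were flagged and compared with the remaining P1 members. Hoxa5, a homeobox gene of the Hox A cluster (chromosome 6) known for its part in the development of lung and trachea, had 93 UMIs in 21 of 47 P1 members (44.7%, 30.2 to 59.9) and 8 UMIs in 2 of 30 P7 members (6.67%, 0.818 to 22.1). It had a UMI in 3.98% of other P1 cells and 1.71% of other P7 cells, in 1.39% and 0.164% of the fibroblast gate, in 8.38% and 3.97% of the endothelial gate and in 2.78% and 0.228% of lymphocytes, which should lack it. After thinning to 5000 UMIs the shares of members were 29.8% and 3.45%. Of the 21 P1 cells, 16 held at least 2 Hoxa5 UMIs, and the highest held 24 and was also the deepest member with 34461 UMIs. The median depth was 15572 UMIs in the cells with and 15203.5 in those without Hoxa5, a small difference in depth. Both sets were female, at 674 and 644 CPM of Xist. A cell without a Hoxa5 UMI may have missed it.

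Mesothelial genes were present in both sets, some in fewer cells with Hoxa5. Upk3b, carried by every cell through the gate, was 1897 CPM in P1 cells with Hoxa5 and 2377 CPM in those without, Lrrn4 was 320 and 335 CPM, and Wt1 was 349 and 271 CPM with UMIs in 21 of 21 and 25 of 26 cells. Msln was 1623 and 2900 CPM, in 16 of 21 and 26 of 26 cells, and Krt19 was 853 and 1336 CPM, in 18 of 21 and 26 of 26. Keratins, junctions and polarity genes had a median log2 ratio of -0.59 over 12 measured, with 1 at least 2-fold higher and 2 lower in cells with Hoxa5. Gata6 lay at 455 and 376 CPM and Aldh1a2 at 271 and 330 CPM. Of 2283 genes with at least 50 UMIs in the P1 members, 90 (3.94%) were at least 2-fold higher and 107 (4.69%) at least 2-fold lower in cells with Hoxa5. No other split of these cells was made for comparison.

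Some genes known from the heart differed. The lineage factors as a list had a median log2 ratio of 0.22 over 12 measured, with 2 at least 2-fold higher and 1 lower in cells with Hoxa5. Tbx18, a T-box factor of the epicardium, had 10 UMIs in the cells with Hoxa5 and 110 in those without, or 28.8 and 295 CPM, and 211 CPM in the P7 members. Hand2 had 4 and 29 UMIs, Gata4 3 and 13, and Tcf21 0 and 16. Gata5 had 9 and 13 UMIs and Tbx5 6 and 10, too few for an order. Myl7, the atrial myosin light chain, had 18 and 122, and Aldh1a1, a retinaldehyde dehydrogenase, 8 and 78. Tbx2 went the other way, with 29 and 3 UMIs. Of the other Hox genes looked up, Hoxa4 had 11 and 0 UMIs and Hoxa2 9 and 1, with intervals of the ratio above 0. Hoxb2 had 11 and 8, Hoxb4 11 and 7, Hoxc4 11 and 4, Hoxa3 7 and 3, Hoxb3 3 and 3 and Hoxc5 2 and 1, with intervals that span 0, so that Hox transcripts were also found in cells without Hoxa5. Hoxa7, Hoxb5, Hoxb6 and Hoxd3 had 0 UMIs in both sets. Tbx4 and Wnt2, which are also genes of lung mesenchyme, had 6 and 2 and 25 and 16 UMIs. Foxf1 had 0 and 4, the latter in 1 cell. The intervals of the ratios of Tbx4, Wnt2 and Foxf1 span 0, so no order can be given. These factors and the Hox genes were chosen after values had been seen.

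The 6 genes named in each direction, picked for the size of their ratios, differed in how many cells they rested on. Some genes of few UMIs had log2 ratios of like size and were not among them, 4.63 for Hoxa4 and -4.94 for Tcf21. Hpgd had 165 UMIs in 16 of the 26 cells without Hoxa5 and 0 in the 21 cells with it, at least 51.2-fold lower, or 32.2-fold without the 1 cell that held 66 of the UMIs. Npr3, the clearance receptor for natriuretic peptides, had 52 and 0 UMIs, at least 16.1-fold lower. Slurp1, Tm4sf5, Thbs2 and Gpx3 were lower in the cells with Hoxa5, with log2 ratios from -4.94 to -3.90. Higher in them were Pclaf, a factor of DNA replication (4.32), Tnfrsf11b (4.26), Plac8 (2.94), Igfbp3 (2.85), Tubb6 (2.80) and Epcam (2.75). Tnfrsf11b had a UMI in 17 of 21 cells with Hoxa5 and 1 of 26 without, but Epcam in 8 and 4, Igfbp3 in 17 and 11 and Slurp1 in 1 and 7. Pclaf rested on 6 cells with Hoxa5, 1 of which held 22 of its 46 UMIs, and 4 of 21 cells with Hoxa5 and 1 of 26 without had a UMI of Mki67 or Top2a. Of the 21 cells, 20 had a UMI of Tnfrsf11b, Krtdap or Rarres1 and none of Hpgd or Npr3. Of the 26, 19 had a UMI of Hpgd or Npr3, 5 of the first 3 genes, and 4 of those 3 genes alone. The grouping of these 5 genes was chosen after their values were seen.

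**Figure D5:**
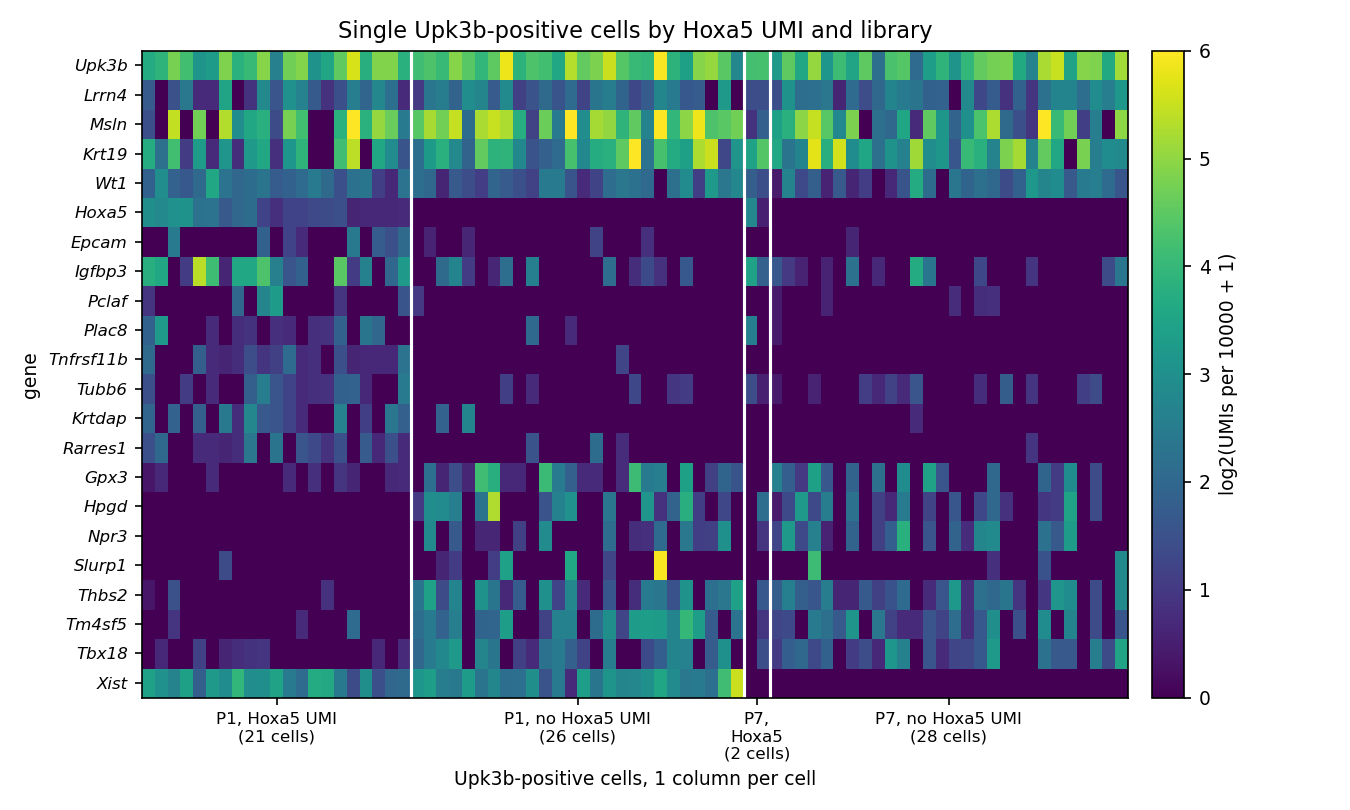
Level of selected genes (rows, log2 of UMIs per 10000 plus 1, colour scale ending at 6) in each of the 77 Upk3b-positive cells (columns), ordered by library and Hoxa5 UMI. Upk3b (by the gate), Lrrn4 and Wt1 are found in most cells of each group, Msln and Krt19 are missing in 5 and 3 of the 21 P1 cells with Hoxa5, and Hpgd and Npr3 are empty in those 21 cells and present in P1 cells without it and in P7 cells.

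In the P7 members Hpgd or Npr3 had a UMI in 19 of the 28 P7 members without Hoxa5 and in 1 of the 2 with it, and Tnfrsf11b, Krtdap or Rarres1 in 2 of 28 and 0 of 2. Tubb6 had a UMI in 12 of the 28 P7 members without Hoxa5, against 5 of 26 P1 cells without and 14 of 21 with it, and Pclaf in 5 of 28, against 1 of 26 and 6 of 21. Leaving out all cells with a Hoxa5 UMI, 70 of 2526 genes were at least 2-fold higher at P1 (2.77%) and 65 at P7 (2.57%). Of the 133 genes higher at P1 in all members, 46 were called under the same minimum of 50 UMIs, and of the 102 higher at P7, 42 were. With that minimum dropped, since fewer cells give fewer UMIs, 90 and 56 had a ratio of at least 2-fold. The log2 ratio of Igfbp3 was 1.64 in all members and -0.02 without the Hoxa5 cells. Set against the P7 members without Hoxa5, the P1 cells with it had 126 of 2422 genes at least 2-fold higher (5.2%) and 147 at least 2-fold lower (6.07%). Against the P1 cells without Hoxa5, 8 of 16 secreted factors measured were at least 2-fold lower and 1 at least 2-fold higher in those with it. Of all 2283 genes measured there, 4.69% were lower and 3.94% higher. The list's median log2 ratio was -0.98, beside 0.02 over all genes measured. The origin of the cells with Hoxa5 was not tested.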

How the data were processed

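Single cell RNA sequencing was analysed for 1 library of P1 and 1 of P7 mouse hearts. The authors made the deposited UMI counts per gene and barcode with Cell Ranger 3.1.0 on mm10, and normalised nothing in these files. The study's own comparisons treated single cells as units in MAST; here cells were not taken as replicates. Of 31053 gene identifiers, 31011 matched GENCODE M21. Barcodes with 200 to 8000 genes and at most 20% mitochondrial UMIs were kept, and the gate for Upk3b, its second marker and Sftpc was applied. No doublet caller was run. Reference cells were gated on Pdgfra with Col1a1 (fibroblasts), Pecam1 with Cdh5 (endothelium) and Cd3 or Cd79 genes (lymphocytes), and fibroblasts and endothelium had 0 UMIs of Upk3b. The libraries shared 18 barcode sequences, 13 of them among kept cells and 0 among members.

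UMIs were summed over cells and scaled to CPM. Log2 ratios were taken after adding 0.5 UMI to each sum. Intervals at the 95% level were exact Poisson (CPM), binomial given the sum of both counts (ratios) or Clopper-Pearson (shares), and cover counting error only. Folds against cells at 0 used a floor of 3 UMIs over the group. Genes named were the gate genes, the 20 highest and 8 lowest against other cells and the 12 largest ratios in each direction between libraries. The most abundant and variable genes, the leading genes of each list and the 6 largest ratios in each direction with Hoxa5 were named too. Genes that the study names for these data were also included, of which Egln1 and Hif1a are not reported here. These rankings did not cover every gene. C1qa and Cxcl12 (against other cells), Ddx3y (towards P7) and Hoxa4 and Tcf21 (with Hoxa5) had few or no UMIs in the members. Their ratios were larger in size than those of some genes named. One gene that the rule named towards P7 is not reported here. Further list members, transcription factors and joint counts of genes were chosen after their values were seen. The members and lists were chosen with earlier results of these data known. Alternatives were other thresholds of the gate, UMI minimum and fold, thinning to 5000 UMIs, median-ratio scaling, the fibroblast gate as reference and leaving out cells. The ratio code was tested on simulated data. Python 3.11.15, numpy 2.4.6, scipy 1.17.1, pandas 2.3.3 and matplotlib 3.10.9 were used.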

Additional observations from a re-analysis of the deposited data

Results flagged for a closer look

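The ratio of P1 over P7 had opposite directions in the Upk3b-positive cells and in the other kept cells by at least 2-fold on both sides for 9 of the 133 genes higher at P1 and 9 of the 102 higher at P7. Of the genes that the rules named, some of which lay below the minimum of 50 UMIs behind those counts, 6 with 30 or more member UMIs in at least 1 library had such opposite ratios. The difference was not tested, since each age had 1 library. On the log2 scale Tnfrsf11b had 5.82 in the members and -2.98 in the other cells, where the former value rests on 0 UMIs at P7 and depends on the 0.5 UMI added. Krtdap had 5.02 and -2.0, Tesc had 3.67 and -1.02, and Igfbp6 had 1.29 and -1.14. In the direction of P7, Fmo2 had -2.39 in the members and 1.53 in the other cells, and Npr3, the natriuretic peptide clearance receptor, had -1.74 and 2.51. Without the cells with a Hoxa5 UMI, all of which at P1 held 0 Npr3 UMIs, the value of Npr3 in the members was -0.89 (-1.40 to -0.40), under 2-fold.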

How the results depend on the processing

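No paired analysis was possible because each age had 1 library. Counting error is the only error that the data give, and genes of few UMIs have wide intervals. Without cells with a Hoxa5 UMI, 70 genes were at least 2-fold higher at P1 and 65 at P7. After thinning to 5000 UMIs, these numbers were 47 and 32, those at least 4-fold higher and lower than other cells were 114 and 86, since fewer genes reached the minimum, and 29.8% of P1 members had a Hoxa5 UMI. With a lower minimum of UMIs, 353 genes were 4-fold lower, 366 higher at P1 and 340 higher at P7, and with a higher one the 4-fold counts were 123 and 105 and the 2-fold counts 64 and 39. Against the fibroblast gate, 144 genes were 4-fold lower. A 2-fold limit gave 402 and 413 genes against other cells, and a 4-fold limit 30 and 13 between the libraries. Without the highest cell of each gene, chosen after seeing the data, 146 genes were 2-fold higher at P1 and 61 at P7. The log2 ratio of Sparcl1 turned to 0.46 with a Upk3b minimum of 1 UMI and to 0.055 without cells carrying markers of other types. Against the fibroblast gate, that of Cd36 turned to 1.76 (P1) and 2.67 (P7) and that of Fabp4 at P7 to 1.56. The cause was not tested. Over all alternatives, 88 counts and shares were classed as unchanged and 20 as moved. The unchanged class was wide, since it held 313 genes in place of 223 with a lower minimum of UMIs. It also held 177 and 76 in place of 133 and 102 with median-ratio scaling. Of the named ratios between libraries, 388 were unchanged in this sense and 18 moved without a change of direction. The 388 include, without Hoxa5 cells, 3.47 in place of 5.02 for Krtdap and 2.77 in place of 4.51 for Rarres1. Of the named ratios against other cells, the numbers were 793 and 100.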
